A study of Mus musculus with 677 samples.

Results

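The genes described here are 46 genes of mitosis, chosen by name as members of the machinery that condenses, attaches and separates chromosomes, and all 46 were found among the 23420 genes of the table. They were followed in single epithelial cells of the mouse intestine, sequenced by SMART-Seq2, a plate-based full-length cDNA method. All mice were C57BL/6. Cells came from wild-type mice (WT) and from mice with a knockout of Atg16l2 (KO), a gene related to Atg16l1 of the autophagy machinery. The cell names carried a run (1 or 2), a code M1 or M2 and 1 of 9 cell types given by the authors. The codes were read as 2 animals per genotype, each with 80 to 87 cells in either run. Below, 4 values in a row are those of the WT animals M1 and M2, then of the KO animals M1 and M2. The sources used here do not state that the codes are animals, nor whether a code marks the same animal in both runs, nor the age of the mice or the cells in which the knockout acts. P-values below measure the spread between 2 animals per genotype, which may be partly technical.

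Entry into mitosis is driven by CDK1 bound to B-type cyclins and is sharpened by the CDC25 phosphatases, Aurora A and PLK1. Kinetochores then attach chromosomes to the spindle while the spindle checkpoint holds back the anaphase-promoting complex (APC/C). Once CDC20 and the ubiquitin-conjugating enzyme UBE2C activate that complex, securin and cyclin B are destroyed, sister chromatids part, and the central spindle directs cytokinesis. Transcripts of this machinery accumulate in G2 and M phase. In the intestinal crypt, stem cells at the base feed a zone of fast-dividing transit-amplifying cells (TA), whose offspring leave the cell cycle as they become absorptive enterocytes or secretory cells.

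Many promoters of G2 and M phase genes carry a cell cycle genes homology region, TTTGAA, and CCAAT boxes, which bind the DREAM and MuvB complexes and NF-Y. RefSeq promoters (GRCm38.p6, from 250 bases before to 50 after the start) were matched by symbol for 39 of the 46 genes. TTTGAA, searched on both strands, was present in 28 of the 39 (71.8%), against 20.2% of all 27025 promoters in the RefSeq table. Within 100 bases before to 50 after the start the shares were 66.7% and 9.23%. CCAAT, also on both strands, was present in 76.9% of the matched promoters against 41.1% of all, and both motifs together in 61.5% against 8.97%. Related lists also held CCAAT more often than all promoters did. The shares were 68.1% of further mitosis genes, 65.2% of a mixed list around cell cycle exit and 60% of replication genes. The mixed list holds CDK inhibitors and other genes of exit, and also D-type cyclins, Cdk4, Cdk6 and MuvB subunits. TTTGAA was in 51.1%, 26.1% and 15% of the lists, in the same order. A CCAAT match on one strand can overlap another CCAAT match on the other, and TTTGAA and CCAAT matches can share an end letter. The E2F-type motifs TTTCCCGC, TTTGGCGC and TTTCGCGC, on both strands, were in 16 of 40 matched promoters of replication genes (40%), in 1 of the 39 of mitosis genes (2.56%), that of Cdk1, in 14.9% of those of further mitosis genes, and in 2.12% of all. A match is a description of letters in this window. Promoters without an entry were those of Ccna2, Cdc25c, Aurkb, Tpx2, Kif20a, Incenp and Smc4.

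The promoters of the 4 genes with both motifs and the highest level in TA cells are printed to show how the motifs lie in the genes that lead the results below. They belong to Ube2c (chr2:164769679-164769978, plus strand), Hmgb2 (chr8:57511593-57511892, plus strand), Ccnb2 (chr9:70421505-70421804, minus strand) and Cdc20 (chr4:118437294-118437593, minus strand), each 5′ to 3′ along the gene. Capitals mark TTTGAA (or TTCAAA) and CCAAT (or ATTGG).
Ube2c: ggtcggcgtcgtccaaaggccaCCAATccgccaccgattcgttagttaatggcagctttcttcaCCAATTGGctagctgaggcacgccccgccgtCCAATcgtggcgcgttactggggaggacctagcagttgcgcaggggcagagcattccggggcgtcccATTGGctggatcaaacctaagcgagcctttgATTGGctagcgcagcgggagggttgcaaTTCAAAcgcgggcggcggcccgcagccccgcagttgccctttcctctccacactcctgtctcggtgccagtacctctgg
Hmgb2: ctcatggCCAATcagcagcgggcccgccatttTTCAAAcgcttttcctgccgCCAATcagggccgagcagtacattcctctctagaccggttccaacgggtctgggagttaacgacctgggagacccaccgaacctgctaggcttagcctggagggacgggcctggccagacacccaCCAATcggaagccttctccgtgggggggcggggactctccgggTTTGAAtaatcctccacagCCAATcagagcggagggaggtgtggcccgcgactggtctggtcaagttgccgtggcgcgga
Ccnb2: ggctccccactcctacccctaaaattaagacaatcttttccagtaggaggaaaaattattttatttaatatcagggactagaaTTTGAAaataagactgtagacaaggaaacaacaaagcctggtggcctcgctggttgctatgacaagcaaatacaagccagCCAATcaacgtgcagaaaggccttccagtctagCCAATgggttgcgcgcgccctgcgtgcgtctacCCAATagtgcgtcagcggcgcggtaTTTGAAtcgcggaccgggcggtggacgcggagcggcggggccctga
Cdc20: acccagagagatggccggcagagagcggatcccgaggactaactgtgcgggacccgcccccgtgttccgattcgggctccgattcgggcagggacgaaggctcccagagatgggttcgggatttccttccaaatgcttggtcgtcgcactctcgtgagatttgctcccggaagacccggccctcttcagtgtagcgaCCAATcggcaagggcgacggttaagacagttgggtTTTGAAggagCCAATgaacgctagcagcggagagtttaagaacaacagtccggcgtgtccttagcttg

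Close to the start, a TTTGAA match began at position -29 in Ube2c, -30 in Hmgb2, 4 in Ccnb2 and -18 in Cdc20, counted from the start. Ccnb2 had 3 evenly spaced CCAAT matches at -87, -54 and -21, upstream of that TTTGAA match. Ube2c had 6 CCAAT matches, 2 of them overlapping at -186 and -183.

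The deposited values were TPM, a relative abundance of transcripts scaled to their length, which has the same sum in every cell and keeps no read depth. Levels of different genes can therefore be set side by side, and the depth of each cell is unknown. In the labelled types, the summed levels of the defining markers were highest in the type they define (for 8 stem cell markers, 17539 TPM in Stem cells; for 8 goblet cell markers, 124170 TPM in Goblet cells; for 10 enterocyte markers, 25072 TPM in Enterocyte cells). Ptprc, carried by all leukocytes, averaged at most 0.40 TPM in these 3 types and in TA and both progenitor types, and 23.5 TPM in the 7 Tuft cells. Atg16l2 was above 0 TPM in 20 cells of WT M1 and 18 of WT M2, and listed at 0 in every cell of both KO animals. Since the authors annotated types on the expression of the same cells, differences between types below are descriptions, with no test.

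The mitosis genes formed a plateau that began with TA cells and ended between the early and the late enterocyte progenitors. A score for each cell, the mean of log2(TPM + 1) over the 46 genes, averaged 1.19 ± 0.19 in Stem cells, 4.22 ± 0.17 in TA cells and 4.78 ± 0.65 in Enterocyte.prog.early cells (SD, n = 4 animals). It averaged 1.21 ± 0.07 in Enterocyte.prog.late cells and 0.67 ± 0.11 in Enterocyte cells. The 4 animals did not overlap between the plateau types and the others along this line. TA and Enterocyte.prog.early cells overlapped, because the score of KO M2 was lower in the early progenitors (3.94) than in its TA cells (4.45).

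**Figure D1:**
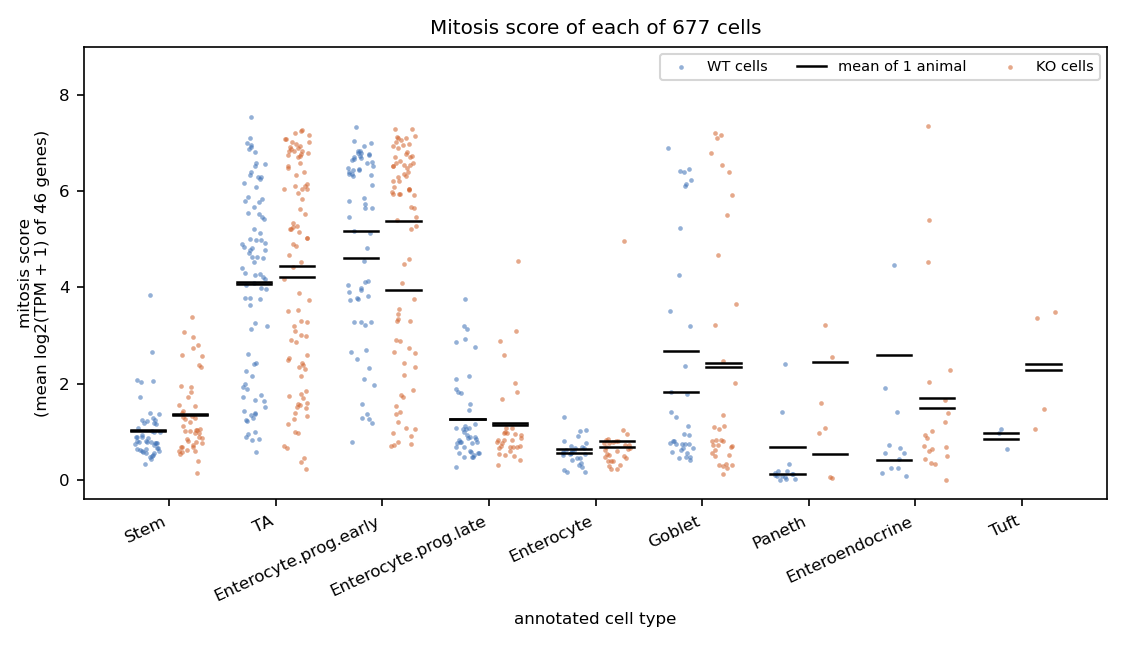
Mitosis score of every cell (y axis, mean log2(TPM + 1) of 46 genes) by annotated cell type (x axis). Blue points are WT cells, orange points KO cells, and each black bar is the mean of 1 animal. TA and Enterocyte.prog.early cells reach above 7 with a tail of low cells, Stem and Enterocyte.prog.late cells stay mostly under 2, and Goblet cells fall into a large low and a smaller high set.

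Counts of genes, like their levels, were highest in TA and Enterocyte.prog.early cells. A cell was called high when at least 23 of the 46 genes were above 0 TPM, which held for 300 cells (44.3% of all), with 52 cells between 20 and 26 genes. In TA cells 62 of 85 WT (72.9%, exact 95% binomial interval 62.2 to 82.01%) and 65 of 90 KO cells (72.2%, 61.8 to 81.2%) were high, and in Enterocyte.prog.early cells 53 of 64 WT (82.8%, 71.3 to 91.1%) and 61 of 78 KO cells (78.2%, 67.4 to 86.8%). In Stem cells 12 of 96 were high (12.5%, 6.63 to 20.8%), and in Enterocyte.prog.late cells 9 of 75 (12%, 5.64 to 21.6%). In Enterocyte cells 1 of 58 was high (1.72%, 0.0436 to 9.24%). These intervals cover counting error only. None of the Stem or Enterocyte.prog.late cells held 39 or more of the 46 genes, whereas 82 TA and 84 Enterocyte.prog.early cells did. Over the whole table, the number of genes detected (above 0 TPM) had a median of 5688 in Stem, 6429 in TA, 6713 in Enterocyte.prog.early and 6079 in Enterocyte.prog.late cells, and within a type the score moved with it (Spearman rho 0.62 over TA cells and 0.58 over Enterocyte.prog.early cells). The part of detection in these shares was not tested. Of the 9 high Enterocyte.prog.late cells 8 were from run 1, and the share there was 20% in run 1 and 2.86% in run 2.

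The single high Enterocyte cell came from KO M2 in run 1. It held 45 of the 46 genes and 10098 genes in all, against a median of 5850.5 for the type, and the next highest Enterocyte cell held 19. Its enterocyte markers summed to 33362 TPM, within the range of the type (1906 to 136080 TPM). With it the mean Enterocyte score of KO M2 was 0.81, and without it 0.55. Whether it is 1 cell or a doublet was not tested.

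Going from Stem to TA cells, all 46 genes were higher in all 4 animals, with a median difference of 3.16 on the log2(TPM + 1) scale. Of the 6714 genes that passed the filter on low values (40 of the mitosis genes among them), 21.7% were higher in all 4 animals, with a median of 0.11. Nusap1, a microtubule-binding protein of the spindle, differed by 5.56 ± 0.38 (SD, n = 4 animals) and stood in Stem cells at 0.60% of its TA level. Ccnb1, cyclin B1, stood at 0, 9.17, 3.95 and 2.65 TPM in the Stem cells of the 4 animals, and at 121.02, 152.1, 195.5 and 196.7 TPM in their TA cells. Its animals did not overlap between these types. The least different were Pttg1, which encodes securin (0.52 ± 0.21), and Bub3, a spindle checkpoint protein (0.95 ± 0.25), which stood in Stem cells at 69.7% and 51.9% of their TA levels. The median of the 46 genes was 9.87%.

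**Figure D2:**
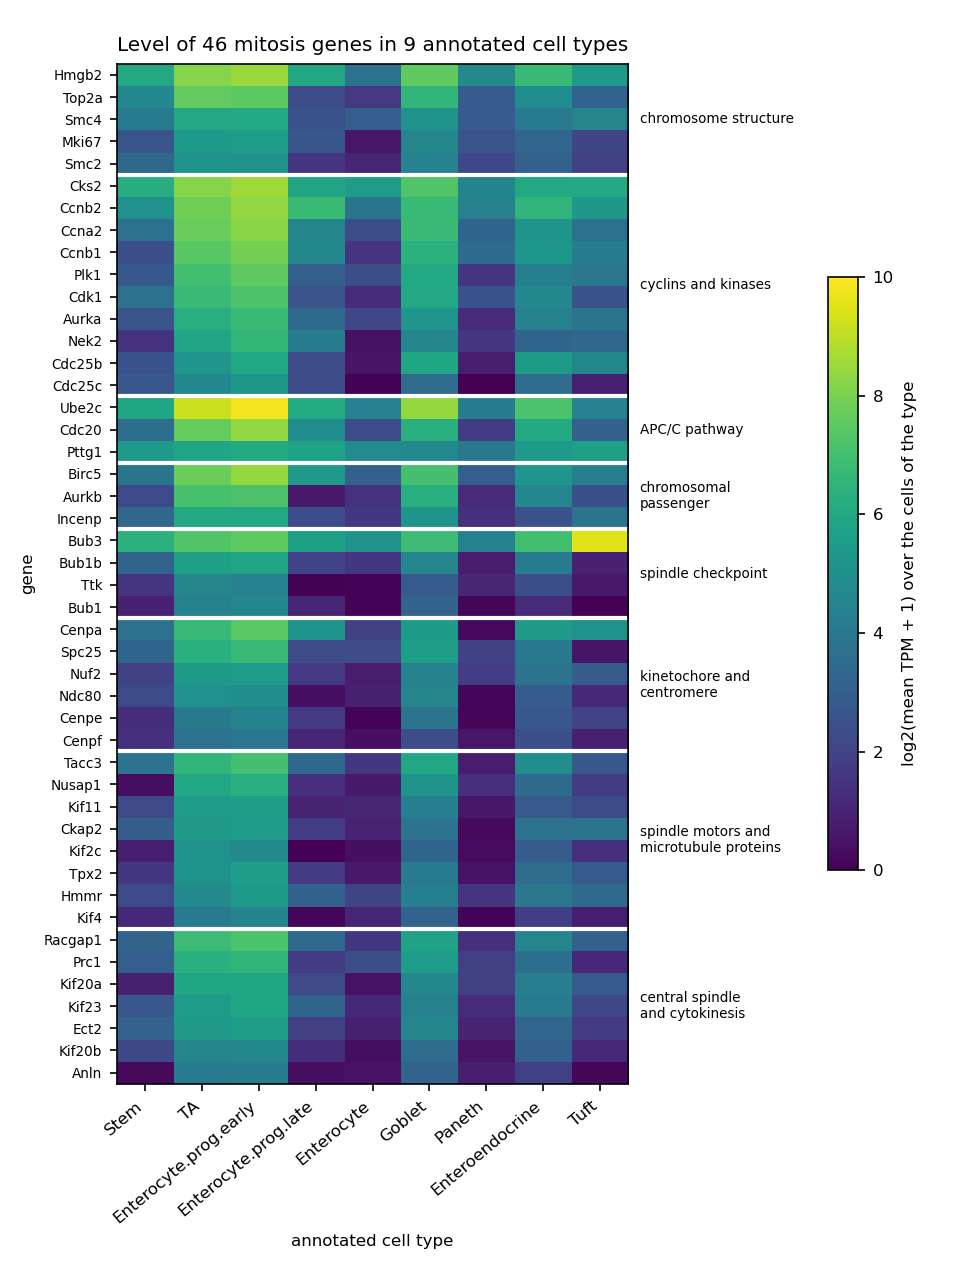
Level of each of the 46 mitosis genes (rows, grouped by role) in the 9 annotated cell types (columns), as log2 of the mean TPM plus 1. The bright TA and Enterocyte.prog.early columns stand beside dim Stem and Enterocyte.prog.late columns, and Bub3 alone is brightest in Tuft cells (756 TPM, mean of animals).

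The highest levels in TA cells belonged to genes of several roles. Ube2c, the ubiquitin-conjugating enzyme of the APC/C, stood at 510, 566, 588 and 712 TPM in the 4 animals. It was followed by Cks2, a CDK-binding subunit (291.03 TPM, mean of 4 animals), Hmgb2, a chromatin protein (288 TPM), Ccnb2, cyclin B2 (226.8 TPM), Ccna2, cyclin A2 (215.1 TPM), and Birc5, survivin of the chromosomal passenger complex (214.5 TPM). By role, the median level in TA cells was 196.8 TPM for the APC/C pathway, 136.3 TPM for the chromosomal passengers and 117.3 TPM for cyclins and kinases. It was 64.4 TPM for chromosome structure, 45.1 TPM for the central spindle and cytokinesis, 37.8 TPM for kinetochore and centromere genes, and 36.8 TPM for the spindle checkpoint and for spindle motors alike. Levels within a role varied, in the checkpoint from 20.01 TPM for the kinase gene Bub1 to 155.9 TPM for Bub3, and among kinetochore and centromere genes from 12.2 TPM for Cenpf to 109.8 TPM for Cenpa. Of the 46 genes, 37 had their highest mean in Enterocyte.prog.early cells and 8 in TA cells. The exception was Bub3, which averaged 756 ± 63.8 TPM in Tuft cells (SD, n = 4 animals, 7 cells in all, each above 0). In Enterocyte.prog.early cells it stood at 182.9, 223.6, 202.2 and 119.3 TPM. Every animal's Tuft mean lay between 672 and 816 TPM, above every other type's animals.

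From TA to Enterocyte.prog.early cells the median difference was 0.25, and 9 of 46 genes were higher in all 4 animals (23.4% of all genes tested were). None was lower in all 4. The 9 were Nek2, Cdc20, Birc5, Hmmr, Cdc25c, Tacc3, Tpx2, Hmgb2 and Pttg1. Cdc20, the activator of the APC/C, stood at 165.3, 192.97, 206.96 and 221.97 TPM in TA cells and between 281.2 and 411 TPM in Enterocyte.prog.early cells. The lowest early animal was above the highest TA animal. In KO M2 the median of the 46 genes went the other way (-0.43), against 0.35, 0.53 and 0.52 in the other animals.

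The score of DNA replication genes was highest in TA cells along the absorptive line. Of 49 replication and S phase genes, a list outside the 46, 42 were lower in Enterocyte.prog.early than in TA cells in all 4 animals (20.6% of all genes tested were), with a median difference of -0.86. Of 64 further mitosis genes, a list also outside the 46, 12 were lower and 4 higher in all 4 animals at this step, with a median of -0.10. Mcm3 and Mcm5, subunits of the replicative helicase, differed by -1.08 ± 0.46 and -0.91 ± 0.17 (SD, n = 4 animals), while Rrm2, a subunit of ribonucleotide reductase, differed by -0.26 ± 0.43. Per animal, the mean replication score went from 4.86, 4.99, 4.94 and 4.53 in TA cells to 3.95, 3.42, 3.83 and 3.65 in Enterocyte.prog.early cells, lower in every animal. In Stem cells the replication score was already 3.55 ± 0.53, where the mitosis score was 1.19 ± 0.19. Between single cells the scores were nearly unrelated in TA cells (Spearman rho -0.07 over the 85 WT and 90 KO cells) and in Enterocyte.prog.early cells (0.04 over 64 WT and 78 KO cells), whereas rho was 0.70 over the 96 Stem cells. Depth and detection are shared by both scores of a cell.

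**Figure D3:**
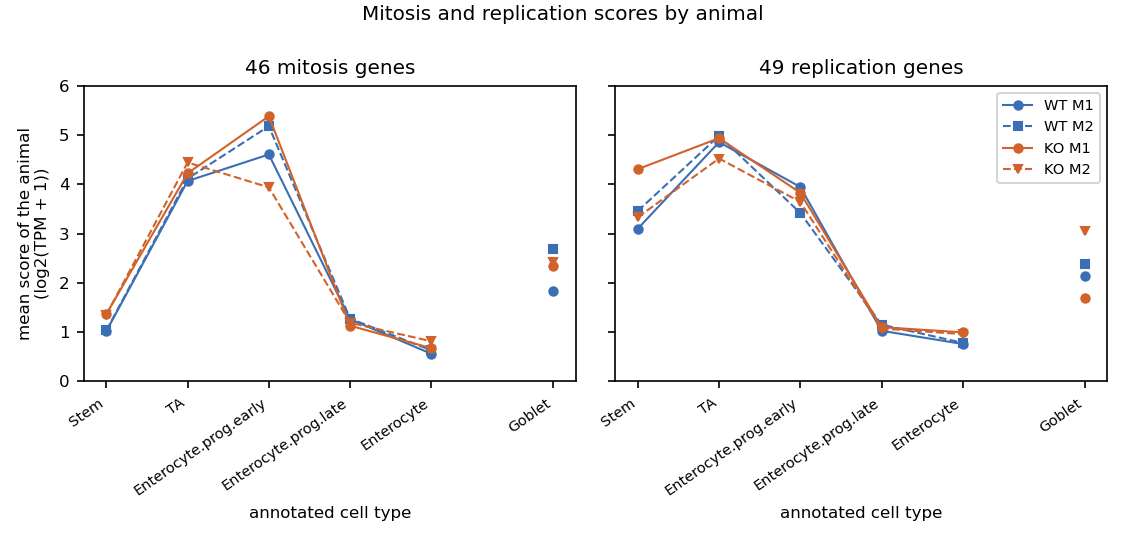
Mean score per animal (y axis, mean log2(TPM + 1)) along the absorptive types and in Goblet cells (x axis), for the 46 mitosis genes (left) and 49 replication genes (right). Blue marks WT and orange KO animals. The mitosis score is highest in Enterocyte.prog.early cells in 3 of 4 animals, while the replication score is highest in TA cells in all 4.

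Between Enterocyte.prog.early and Enterocyte.prog.late cells the score was lower in every animal, and in 3 of them this was the largest step along the line. In KO M2 the step from Stem to TA cells was larger (3.09). The mean score differed by -3.35 and -3.91 in the WT and by -4.26 and -2.75 in the KO animals. All 46 genes were lower in all 4 animals, against 25.5% of all genes tested, with a median of -3.87 (-0.11 over all genes). The same held for all 64 further mitosis genes, among them Ccnf, an F-box protein related to the cyclins (-6.26 ± 0.23), Ncaph (-4.90 ± 0.81) and Ncapg (-4.75 ± 0.88), subunits of condensin (SD, n = 4 animals). Replication genes were lower in all 4 animals for 47 of 49, with a median of -2.97. Of the 30 genes of the mixed list around cell cycle exit, which also holds D-type cyclins and their kinases, 14 were lower and 3 higher in all 4 animals (16.4% of all genes tested were higher). The 3 with the largest drop were Lin9 (-2.83 ± 0.77), a core subunit of the MuvB complex, Cdkn2d (-2.68 ± 0.89), a CDK4 and CDK6 inhibitor, and Rbl1 (-1.99 ± 0.74), the pocket protein p107.

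The share of transcript left, the late mean as a percentage of the early mean, differed between the genes. It is a ratio between groups of cells, with 9 of 75 late cells high, and does not give what single cells kept. The late progenitor level was 6.49% of the early level at the median of the 46 genes, and under 10% for 34 of them. Kif2c, a kinesin that takes microtubules apart at centromeres, and Ttk, the checkpoint kinase MPS1, were listed at 0 in all 75 Enterocyte.prog.late cells, which allows a share of cells of up to 4%. Aurkb, the kinase of the chromosomal passenger complex, stood at 112.6, 150.1, 192.3 and 115.9 TPM in the early cells and at 0, 0.38, 0 and 1.83 TPM in the late cells (0.39% of the early level). By role, the median share left was 3.52% for spindle motors and microtubule proteins, 4.20% for the spindle checkpoint, 5.48% for the chromosomal passengers and 5.64% for the central spindle and cytokinesis. It was 5.80% for kinetochore and centromere genes, 7.07% for chromosome structure, 8.48% for the APC/C pathway and 9.14% for cyclins and kinases. Within the checkpoint the share ranged from 0 (Ttk) to 26.4% (Bub3), within the chromosomal passengers from 0.39% (Aurkb) to 12.4% (Birc5).

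The genes that kept most were Pttg1 (73.7%), Ccnb2 (37.1%), Bub3 (26.4%), Hmmr, a spindle-associated hyaluronan receptor (22.5%), and Cenpa, the centromeric histone H3 variant (21.5%). Ccnb2 stood at 298.05, 364.7, 365.8 and 276.5 TPM in the early cells and at 160, 93.4, 174.06 and 56.2 TPM in the late cells. Ccnb1, its closest relative, stood at 207.8, 276.3, 313.6 and 138.8 TPM in the early cells and at 21.4, 30.7, 12.6 and 25.3 TPM in the late cells, or 9.60%. Thus both cyclins were lower in each animal's late cells, and the share kept was higher for Ccnb2. Pttg1 was lower by 0.52 ± 0.65, and its animals overlapped (71.8, 80.3, 70.9 and 54.5 TPM early against 64.3, 69.5, 24.5 and 46.2 TPM late).

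**Figure D4:**
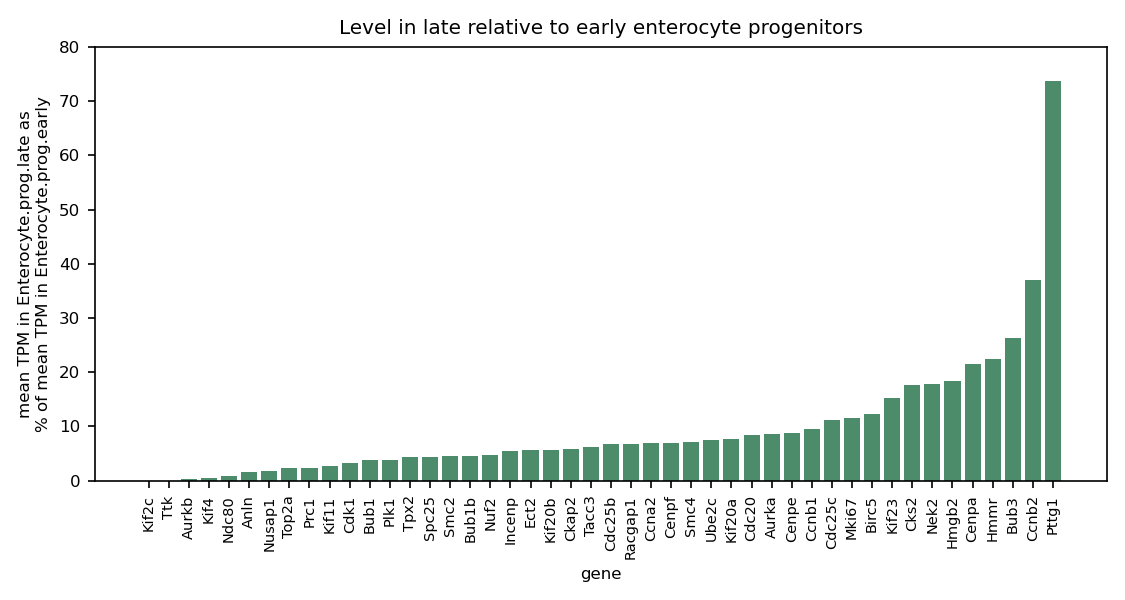
Mean TPM in Enterocyte.prog.late cells as a percentage of that in Enterocyte.prog.early cells (y axis, linear) for each of the 46 genes (x axis, ordered); each bar is a mean over 4 animals divided by another. Most bars lie under 10%, Kif2c and Ttk are at 0, and Ccnb2 and Pttg1 stand at 37.1% and 73.7%.

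Between Enterocyte.prog.late and Enterocyte cells 20 of 46 genes were lower in all 4 animals (23.2% of all genes tested) and none was higher, with a median of -0.88. Nek2, a centrosomal kinase, stood at 16.1, 31.3, 12.3 and 9.97 TPM in the late progenitors and at 0, 0, 0 and 1.26 TPM in Enterocyte cells. Ccnb1 differed by -3.67 ± 1.32 and Cenpa by -3.54 ± 1.51 (SD, n = 4 animals). Over the whole way from TA to Enterocyte cells the largest differences were those of Ccnb1 (-6.54), Top2a, the topoisomerase that untangles sister chromatids (-6.46), Aurkb (-6.28) and Ccna2 (-6.12). The smallest were those of Pttg1 (-1.12), Bub3 (-2.19), Cks2 (-2.70) and Hmmr (-2.75). Pttg1 kept 45.03% of its TA level in Enterocyte cells, where the median gene kept 2.26%. Over the same span 15 of the 30 genes of the mixed list around cell cycle exit were lower and 6 higher in all 4 animals (42.2% and 24.4% of all genes tested), with a median of -0.86.

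Goblet cells, which secrete mucus, were split. Of 70 cells, 42 held at most 15 of the 46 genes, 17 held 39 or more, and 3 held 16 to 22. In all 25 were high (35.7%, exact interval 24.6 to 48.1%), with 23.1 and 40.9% in the WT and 33.3 and 42.9% in the KO animals. Against TA cells 42 of the 46 genes were lower in all 4 animals, where 47.5% of all genes tested were, with a median of -1.05 (-0.47 over all genes). The one gene higher in all 4 was Cdc25b, a phosphatase that switches on CDK1. It stood at 17.2, 31.1, 42.6 and 53.9 TPM in TA cells and at 23.1, 49.7, 76.5 and 79.7 TPM in Goblet cells, or 158.1% of the TA level. The animals overlapped between types, and within each animal the Goblet value was the higher.

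The high Goblet cells had lower goblet markers and more genes detected. Their 8 markers summed to a median of 44365 TPM, against 67170 TPM for all Goblet cells, and none was under 6689 TPM. Their median number of genes above 0 TPM was 7121, against 5816.5. Across the 70 cells the score and the marker level had a Spearman rho of -0.41 (-0.59 in run 1 and -0.18 in run 2). The number of genes had a rho of 0.73 with the score and of -0.35 with the marker level. TPM has the same sum in every cell, so a high marker level leaves less for other genes. The part of this and of detection in the rho of -0.41 was not tested. In Goblet cells mitosis and replication scores went together (rho 0.78). In the rarer types 6 of 22 Paneth, 4 of 32 Enteroendocrine and 2 of 7 Tuft cells were high. The high Paneth cells were 1 of 15 WT and 5 of 7 KO cells. They had a median of 8854 genes detected, against 5134 over the type. In KO M1 2 of 4 Paneth cells were high, although none of its Paneth cells scored above 1.08. The part of detection in these calls was not tested. The 4 high Enteroendocrine cells had a median marker sum of 28.3 TPM, against 14253 TPM over the type, and 1 of them had all 6 markers at 0, so that by these markers it went against its label.

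Across cells the 46 genes mostly went together. After the mean of each type was subtracted, the Pearson correlation of a gene with the mean of the other 45 had a median of 0.74 over all cells, and was over 0.7 for 29 genes. It was highest for Nusap1 (0.86), Tpx2, which activates Aurora A on the spindle (0.83), and Kif11, the motor that separates spindle poles (0.81). It was lowest for Pttg1 (0.12), then Bub3 (0.41) and Cks2 (0.54). Pttg1 stayed apart within TA cells (0.03) and Enterocyte.prog.early cells (0.06) as well. All genes of a cell share its library and its depth.

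Of 10992 other genes above 0 TPM in at least 10% of cells, those most like the score were Ncapg (r = 0.80), Kif22, Ckap2l, Melk, Pbk, Casc5, Cdca2, Cdca8, Espl1 and Shcbp1 (0.74), each over all cells with type means subtracted. The first 9 were on the list of further mitosis genes and Shcbp1 was on no list. In each of these 10 genes r was at least 0.675 in either run. Replication genes had a median r of 0.16, near that of all genes (0.09), and those with the lowest r of the 10992 included Ung (-0.27) and Cdt1 (-0.21), a uracil-DNA glycosylase and a replication licensing factor.

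The genotype comparison asked what the loss of Atg16l2 does to these genes within a cell type, on the mean TPM of each animal. On the unweighted average of 6 types (those with at least 10 cells per animal), limma with Benjamini-Hochberg adjustment called none of the 40 mitosis genes that passed the filter, and none of 6714 genes (0%). At an unadjusted p under 0.05 it had 6 of the 40 mitosis genes and 510 of the 6714 genes. The median difference KO minus WT over the 46 was 0.19 on the log2(TPM + 1) scale (0.03 over all genes), with 34 of 46 higher in KO. Both KO animals lay above both WT animals for 15 of the 40 genes (22% of all genes) and below for 1, Pttg1 (17.1%). The difference depended on the run. Taken from run 1 alone the median was 0.43, from run 2 alone it was -0.32, and it was -0.044 without the run 1 cells of KO M2.

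Cdc25b had the smallest p among the mitosis genes on the average. Its mean over the types stood at 14.5 and 26.6 TPM in the WT and at 35.2 and 32.04 TPM in the KO animals, so the genotypes did not overlap. The average log2 difference was 1.22 (SE 0.23, limma adjusted p = 0.493), with 1.53 in run 1 and 0.72 in run 2. Spc25, a kinetochore protein, Ube2c and Cdc20 differed by 0.90, 0.68 and 0.74 (adjusted p = 0.499 each), and Top2a by 0.60 (adjusted p = 0.557). Of these 4, Spc25 (-0.57) and Top2a (-0.062) had the opposite sign in run 2. Pttg1 went down by 0.22 on the average (adjusted p = 0.759), with the same sign in both runs. None passed the threshold of 0.05. Of the lists outside the 46, the smallest limma adjusted p was 0.513 for further mitosis genes (Ccnf, 0.92) and 0.525 for replication genes (E2f8, 0.73). For the mixed list around cell cycle exit it was 0.512 (Ccng1, cyclin G1, 0.60), so no list gene passed either.

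In TA cells all 46 genes passed the filter and none was called (4 of 6791 genes called, 0.0589%). An unadjusted p under 0.05 was found for 12 of the 46 and for 541 of the 6791 genes. Of the 46, 41 were higher in KO, with a median of 0.36 (0.08 over all genes). Both KO animals were above both WT animals for 28 (26.7% of all genes) and below for 1, Birc5 (13.3%). Cdc25b stood at 17.2 and 31.1 TPM in WT and at 42.6 and 53.9 TPM in KO, a log2 difference of 1.02 (SE 0.29, limma adjusted p = 0.540), with 1.0 in run 1 and 0.96 in run 2. Nusap1, Prc1, which bundles central spindle microtubules, Ckap2, a spindle protein, and Ccnb1 differed by 0.67, 0.72, 0.68 and 0.53 (adjusted p from 0.540 to 0.572). Without the run 1 cells of KO M2 the median over the 46 was 0.065. With KO M1 left out that median was 0.44, and with KO M2 left out 0.22. The mean mitosis score of TA cells did not overlap (4.07 and 4.12 in WT, 4.23 and 4.45 in KO). Its difference was 0.27 in run 1 and -0.026 in run 2. The share of high TA cells overlapped between the genotypes (75 and 70.3% in WT, 74.5 and 69.8% in KO).

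In Stem cells the mean mitosis score was 1.02 and 1.03 in the WT animals and 1.36 in either KO animal. The KO animals were higher by 0.33, by 0.37 in run 1 and 0.33 in run 2, and by 0.52 and 0.15 at pseudocounts of 0.1 and 10. With the runs pooled, high cells made up 5 and 6.90% of Stem cells in the WT and 17.2 and 22.2% in the KO animals, which do not overlap. Within either run the genotypes did overlap. Run 1 gave 0% for WT M1, 13.3% for WT M2, 30.8% for KO M1 and 0% for KO M2. Run 2 gave 8.33%, 0%, 6.25% and 28.6%, in the same order. An animal had 4 to 16 Stem cells per run. The pooled shares rest on 3 of 49 WT and 9 of 47 KO cells. They were not tested, since 2 animals per genotype cannot reach the threshold in an exact permutation test. Of the 13 genes that passed the filter none was called (0%), and 2 had an unadjusted p under 0.05, Top2a (1.08, SE 0.48, limma adjusted p = 0.897) and Cdk1, the kinase of mitotic entry (1.24, SE 0.56, adjusted p = 0.898). Cdk1 stood at 6.68 and 7.60 TPM in WT and at 19.6 and 16.97 TPM in KO. It was lower in KO in run 1 (-0.68) and higher in run 2 (1.39). Both KO animals were above both WT animals for 5 of the 13 (18.2% of all genes) and below for 1, Birc5 (15.8%). WT Stem cells had a median of 5520 and 5661 genes detected and KO Stem cells one of 5878 and 5345.5, which overlap.

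In Enterocyte.prog.early cells no mitosis gene was called (0% of all genes) and none had an unadjusted p under 0.05 in limma. The median was -0.02, as 0.42 in run 1 and -0.41 in run 2. Both KO animals were above both WT animals for 1 of the 46, Kif2c (22.7% of all genes), and below for 2, Ndc80 and Pttg1 (13.5%). In Enterocyte.prog.late cells 12 genes passed the filter and none was called (0.0817% of all genes), with 2 at an unadjusted p under 0.05. Ccna2 stood at 29.6 and 31.6 TPM in WT and at 6.57 and 14.6 TPM in KO, a log2 difference of -1.54 (SE 0.50, limma adjusted p = 0.736), and Pttg1 differed by -0.97 (adjusted p = 0.801). Both KO animals lay below both WT animals for 4 of the 12 (19.7% of all genes) and above for 0 (14.5%). The median over the 46 genes was -0.28. With KO M1 left out it was 0.0061, and with KO M2 left out -0.26. The mean mitosis score was 1.26 and 1.27 in WT and 1.13 and 1.19 in KO animals. Its difference was -0.19 in run 1 and 0.032 in run 2. High cells made up 13.6 and 14.3% in WT and 10 and 9.09% in KO animals, or 6 of 43 and 3 of 32 cells. Neither the score nor this share overlapped between the genotypes.

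In Enterocyte cells 6 genes passed the filter and none was called (0.0342% of all genes). An unadjusted p under 0.05 was found for 482 of 5854 genes, and among the 6 for 1, Ube2c. It stood at 6.01 and 2.68 TPM in the WT and at 51.9 and 25.1 TPM in the KO animals, a log2 difference of 2.87 (SE 0.61, limma adjusted p = 0.226). Ube2c was above 0 TPM in 2 of 18, 3 of 11, 7 of 12 and 5 of 17 cells of the 4 animals. Much of the KO M2 value came from the single high cell (300.3 TPM). Without it Ube2c stood at 7.95 TPM in KO M2, still above both WT animals. The median over the 46 genes was 0.37, and with an animal left out it lay between -0.014 and 0.85. It was 0 without the single high cell and 0 without the run 1 cells of KO M2. By run it was 0.83 in run 1 and 0 in run 2. The mean mitosis score was 0.56 and 0.63 in WT and 0.67 and 0.81 in KO animals, and KO M2 stood at 0.55 without the high cell. Both KO animals were above both WT animals for 2 of the 6, Ube2c and Cks2 (16.3% of all genes), and below for 0 (21.6%).

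Among Goblet cells none of the 40 mitosis genes that passed the filter was called (0.0161% of all genes), with 3 at an unadjusted p under 0.05. The median was 0.38, and both KO animals were above both WT animals for 8 of the 40 (15.7% of all genes) and below for 0 (20.1%). The runs were opposed. In run 1 all 46 genes were higher in KO, with a median of 1.36, and in run 2 only 1 was, with a median of -2.35. Over all genes the medians went the same way, 0.24 in run 1 and -0.34 in run 2. Aurka, Aurora A, stood at 16.97 and 24.5 TPM in WT and at 51.7 and 47.7 TPM in KO (1.24, SE 0.40, limma adjusted p = 0.579), with 2.28 in run 1 and -2.38 in run 2. Cdc25b differed by 1.18 (1.99 in run 1, -0.44 in run 2), Ccna2 by 0.80, Cdc20 by 0.72 and Tacc3, a spindle protein bound by Aurora A, by 0.68, each below 0 in run 2. In run 2 the Goblet cells numbered 3, 9, 11 and 5 in the 4 animals. The summed Paneth markers of Goblet cells also differed between animals (21504, 4592, 88801 and 3688 TPM), and their part in the difference was not tested.

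**Figure D5:**
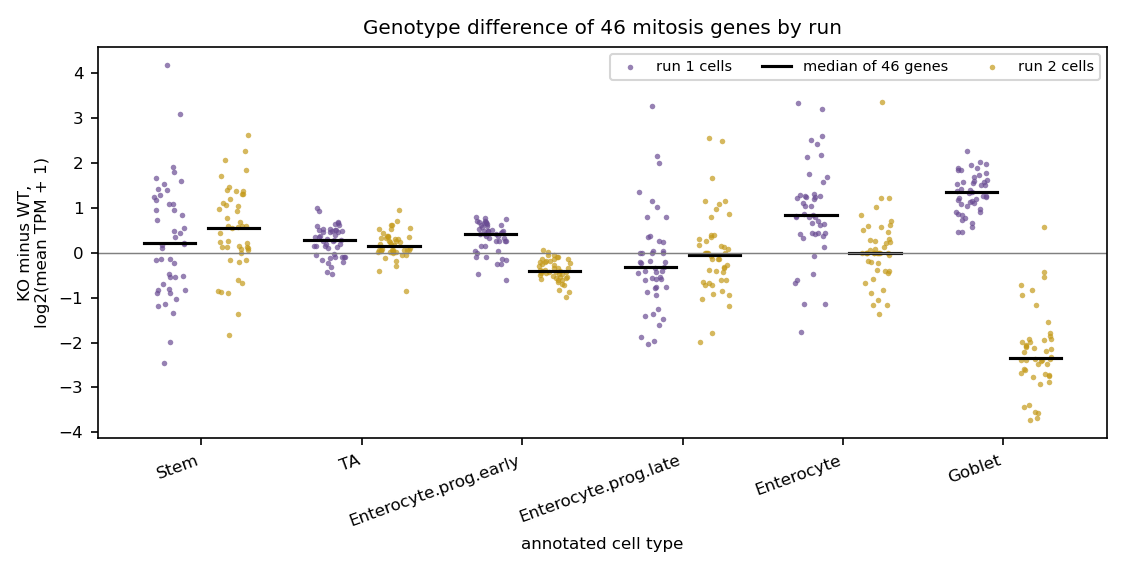
Difference KO minus WT of each of the 46 genes (points, log2(mean TPM + 1), animals weighted equally) in 6 cell types (x axis), for run 1 cells (purple) and run 2 cells (gold), with the median as a black bar. The medians are above 0 in both runs in Stem and TA cells and below 0 in both in Enterocyte.prog.late cells (-0.33 and -0.040), and lie at 1.36 and -2.35 in Goblet cells.

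Variation of the genotype difference over the 6 types was tested with limma's moderated F statistic. It called none of the 40 mitosis genes and 1 of 6714 genes (0.0149%). In that test 4 of the 40 mitosis genes and 490 of the 6714 genes had an unadjusted p under 0.05. The smallest adjusted p was 0.326 for Ube2c, followed by 0.373 for Cdc25b.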

How the data were processed

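Libraries were made with SMART-Seq2, per the labels' protocols, which also name a 10X Genomics kit without saying for which cells. The authors deposited TPM values for 23420 genes, with 1 column per cell. The submitters' processing notes name Bowtie, TopHat and RSEM, and their versions and the genome build are not given in the sources used here. Columns were matched to samples by name (0 were left over), no cell was removed, and no doublet caller was run.

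Mean TPM per animal and type was transformed as log2(TPM + 1), and fitted with limma 3.58.1 in R 4.3.3 (eBayes with trend, two-sided, Benjamini-Hochberg over all genes kept, threshold 0.05). The filter on low values asked for a mean of 10 TPM or more and a value above 0 TPM in 10% of cells or more. The average of 6 types is one of log2 values. In the mean TPM given beside it, types are weighted equally. Genes named were Cdc20, Ube2c and up to 5 genes per direction among those with no overlap of the genotypes, by smallest unadjusted p. For the types they were the 6 highest in TA cells, the 4 largest and 4 smallest differences from TA to Enterocyte, and 1 or more of each role. The 46 genes, the lists and the markers were chosen with earlier results of these data known. Other steps used Python 3.11.15 and pandas 2.3.3. The limma fit was also run on simulated animals, whose cells were drawn from the pooled cells of each type. They carried no spread between animals or runs beyond that draw, so the fit under such spread was not tested.

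Alternatives were pseudocounts of 0.1 and 10, other filters on low values, log values averaged over cells, each run alone, cells with at least 5000 genes, 8 units of run and animal, eBayes without trend, leaving out each animal, and blocks. A crossed block, the single high Enterocyte cell left out, and the alternatives for the Stem score and the F test were added after the data were seen.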

Additional observations from a re-analysis of the deposited data

Results flagged for a closer look

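The mean mitosis score of Goblet cells differed between the runs in opposite directions. KO exceeded WT by 1.40 in run 1 cells, where both KO animals lay above both WT animals, and was lower in run 2 cells (difference of -1.49), where both lay below. The difference between the runs was not tested, and run 2 held 3 to 11 Goblet cells per animal.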

How the results depend on the processing

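Over the 7 genotype comparisons and the F test, all but 5 of the alternatives called 0 mitosis genes. M1 and M2 are only numbers here, and the M1 deviations of WT and KO had a correlation of -0.13 over 6714 genes. With the number as a replicate block, 0 mitosis genes were called in each comparison (2 genes in all on the average). With the crossed pairing as a block, 0 were called on the average (44 of 6714 genes in all) and 1 in TA cells (65 of 6791 genes in all). Each of the other alternatives with a call left out an animal. There the lone animal is assumed to vary like the other genotype. The median difference of the 46 genes on the average was 0.071 with log values averaged over cells, 0.43 in run 1, -0.32 in run 2, -0.044 without the run 1 cells of KO M2, and 0.10 to 0.32 with an animal left out. In TA cells it was 0.15 in run 2, 0.065 without the run 1 cells of KO M2, and 0.22 to 0.44 with an animal left out. In run 2 cells Spc25 (-0.57) and Top2a (-0.062) changed sign.

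No median step changed sign. TA minus Stem was 3.76 and 1.98 at pseudocounts of 0.1 and 10, 3.59 at a filter of 50 TPM, 2.93 with log values averaged over cells and 3.46 in run 1. Late minus early progenitors was -2.21 at a pseudocount of 10. Enterocyte minus late progenitors was -1.77 and -0.27 at the pseudocounts, -2.19 at 50 TPM and -0.39 with log values averaged. Goblet minus TA was -2.02 with log values averaged and -1.79 in run 2. Requiring 15 or 30 genes, in that order, made the share of high cells 25% or 2.08% in Stem, 86.9% or 62.3% in TA, 90.1% or 71.1% in early and 24% or 4% in late progenitors. Counting above 5 TPM gave 69.1% in TA and 5.33% in late progenitors. In run 1 and run 2 the shares were 75.5% and 69.1% in TA and 20% and 2.86% in late progenitors, and in Goblet cells 25% in run 2. The cause of these shifts was not tested. In Enterocyte cells a filter of 50 TPM kept no mitosis gene. TPM keeps no depth, so a gene at 0 in a cell may have been missed.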
